A study of Mus musculus with 19 samples.

Results

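Nodal is a secreted signal of the TGF-beta family, and 9 genes of its pathway were followed in induced pluripotent stem cells (iPSC) of the mouse: the ligand Nodal, its coreceptors Tdgf1 and Cfc1, the receptor Acvr2b, the nuclear partner Foxh1, the antagonists Lefty1 and Lefty2, and the feedback regulators Smad7 and Skil. They were 9 of the 52143 gene identifiers counted, and 8 of them were among the 19700 genes with enough counts to be tested. Cfc1 was not among the genes tested. The set was chosen by name with earlier results of these data in view: it was selected on Lefty1, whose level differs between the db7 and db5 lines and is lowest in the corrected lines. Differences between db7 and db5 lines, and between corrected and other lines, are therefore given for these 9 genes as a description, without a test.

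The study asks what loss of the leptin receptor changes in iPSC, and the groups were corrected, db/db and control cells. Corrected lines (db_c_1 and db_c_2, 4 libraries) were db/db iPSC whose leptin receptor gene, mutated by the db allele, had been repaired with CRISPR-Cas9. The db/db lines (adb_db7, bdb_db7, adb_db5 and bdb_db5, 8 libraries) carried the unrepaired mutation, and the wild-type control lines were aB6_B1, bB6_B1, aB6_A5 and bB6_A5 (7 libraries). Fibroblasts of embryonic day 14.5, bred from OB-R db/+ heterozygous mice, had been reprogrammed in every group with the mouse STEMCCA lentivirus, which carries Oct4, Sox2, Klf4 and cMyc. The labels do not say which db/db line was corrected, whether lines of a shared name (db7, db5, B1, A5) are 1 clone, or whether duplicate libraries are separate cultures. The line was taken as the replicate, and p-values reflect how far these lines spread, which may be partly technical. If lines of a shared name are 1 clone, they are not independent and these p-values may be too low. The lines db_c_1 and db_c_2 were separate replicates in every fit, also where shared names were the replicates. If they come from 1 repaired clone, p-values for corrected lines may be too low as well. The median log2 level of chromosome 3 genes was 0.35 and 0.37 above the mean of all lines in the db7 lines. That of chromosome 15 genes was 0.34 above it in both A5 lines. Whether such lines are 1 clone was not tested, and results with shared names as replicates are given further on.

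Nodal binds a complex of type I and type II activin receptors, and for this it needs a coreceptor of the EGF-CFC family, such as the product of Tdgf1. The receptors phosphorylate SMAD2 and SMAD3, which join SMAD4 and, on many target genes, the DNA-binding protein FOXH1. The targets include Nodal itself and Lefty1 and Lefty2, whose secreted products block Nodal and its coreceptors, so that the pathway limits its own range. In the embryo the pathway patterns the epiblast, drives formation of mesoderm and endoderm and sets the left side of the body. Embryonic stem cells of the mouse transcribe much of the pathway, and cells of the primed, later epiblast state depend on it.

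The promoters of 4 of the 9 genes were found in the RefSeq table (build GRCm38.p6), as 250 bases before to 50 bases after the start of the gene. They were searched on both strands for the FOXH1 motif AATNCACA, the SMAD4 box CAGAC, the palindromic SMAD element GTCTAGAC and the KLF and SP box GGGCGTGG. The ligand and the more abundant coreceptor are shown because their promoters differ in what was found, each is written from 5′ to 3′ on the strand of its gene, and capitals mark the matches. The Nodal window lies at chr10:61417722-61418021 on the + strand and the Tdgf1 window at chr9:110946109-110946408 on the - strand.
Nodal: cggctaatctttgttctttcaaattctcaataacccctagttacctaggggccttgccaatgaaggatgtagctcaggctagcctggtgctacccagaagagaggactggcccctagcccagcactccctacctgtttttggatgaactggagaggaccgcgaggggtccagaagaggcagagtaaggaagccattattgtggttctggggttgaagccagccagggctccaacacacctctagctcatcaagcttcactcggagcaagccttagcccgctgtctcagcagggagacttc
Tdgf1: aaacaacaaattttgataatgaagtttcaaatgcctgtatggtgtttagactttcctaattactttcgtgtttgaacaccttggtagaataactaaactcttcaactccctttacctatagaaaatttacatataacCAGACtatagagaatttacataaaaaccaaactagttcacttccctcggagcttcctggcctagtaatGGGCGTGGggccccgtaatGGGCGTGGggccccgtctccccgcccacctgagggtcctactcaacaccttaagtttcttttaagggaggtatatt
The Nodal window held none of the 4 motifs. The Tdgf1 window held 1 SMAD4 box, at -113 from the start, and 2 KLF and SP boxes, at -45 and -26. A SMAD4 box was also found in the windows of Cfc1 (at -110) and Acvr2b (at -233). Positions are counted from the RefSeq start, which for Acvr2b is not the start of the GENCODE gene given further on. Of 32851 promoters of the same length, 49.6% held a SMAD4 box, 5.33% a KLF and SP box, 3.6% the FOXH1 motif and 0.213% the palindromic element. A match describes letters in a window, and a missing match says nothing of binding elsewhere.

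Each library held between 27333914 and 41203703 estimated counts, and levels are in CPM, the usual unit of counts relative to library size, after TMM scaling between lines. Library adb_db7_2 stood apart in the predicted gene Gm42418, which took 4.81% of its counts against 0.069% to 0.514% in the other libraries. For db/db against control lines, no call of the 8 tested genes, or of the 7 other genes given with a p-value, was lost without that library. All 10 pluripotency markers were tested, and their summed level was 4300 to 4320 CPM in corrected, 4870 to 5140 in db/db and 4660 to 5130 in control lines. Among them, Pou5f1 (Oct4), Sox2 and Klf4 are also carried by the reprogramming vector, and gene-level counts would not separate its transcripts. Of 9 mesendoderm markers, 6 stayed under 1 CPM in every line (T, Mixl1, Mesp1, Tbx6, Fgf8 and Wnt3), and the summed level of the list was 11.1 to 11.7 CPM in corrected, 11.5 to 16.1 in db/db and 9.21 to 9.99 in control lines, with means of 15.8 CPM in db7 and 11.9 CPM in db5. Most of this was Eomes, which is given again further on. Its means were 8.43 CPM in corrected, 10.1 in db/db and 6.29 in control lines. The 10 primed state markers, all over 1 CPM in at least 1 line, summed to 244 to 247 CPM in corrected, 278 to 295 in db/db and 228 to 254 in control lines. Dnmt3b was the largest part, with means of 118.8 CPM in corrected, 120.9 in db/db and 112.1 in control lines. By their means, Fgf5, Otx2, Pou3f1, Zic2, Lef1 and Sox3 were lower in corrected than in control lines. Dnmt3b, Dnmt3a, Cdh2 and Krt18 were higher. Otx2 had means of 9.59 CPM in corrected, 37.9 in db/db and 22.9 in control lines. The 8 two-cell-like markers summed to 11.3 to 13.6 CPM in corrected, 2.86 to 9.63 in db/db and 21.7 to 27.3 in control lines, with means of 3.08 CPM in db7 and 9.14 CPM in db5. In db/db against control lines 7 of these 8 fell, and of the primed markers 5 rose and 1 fell. The share of all tested genes that passed was 16.9% (edgeR with Benjamini-Hochberg adjustment, adjusted p under 0.05). The 8 trophoblast markers, of which Cdx2, Elf5 and Hand1 stayed under 1 CPM, summed to 46.5 to 46.8 CPM in corrected, 38.4 to 69.1 in db/db and 38.5 to 64.2 in control lines. The summed level of 10 primitive endoderm markers, of which Foxq1 stayed under 1 CPM in every line, was 235 to 251 CPM in corrected, 118 to 159 in db/db and 157 to 164 in control lines. Its excess in corrected lines was mostly Col4a1, with means of 171.7 CPM in corrected, 64.5 in db/db and 57.8 in control lines. Lama1 went the other way, at 50.7, 61.1 and 90.8 CPM. The means of Gata6 and Sox7 were not highest in corrected lines either, while those of the other listed genes were. The summed level of 10 fibroblast markers, of which Twist2, Dcn and Lum stayed under 1 CPM, was 1030 to 1110 CPM in corrected, 1120 to 1310 in db/db and 1350 to 1440 in control lines. Most of that sum was Fn1, with means of 906 CPM in corrected, 1051 in db/db and 1134 in control lines. The means of Col1a1, Col1a2, Col3a1, Thy1, Postn and Prrx1 were higher in corrected than in db/db lines, so the order of the sums follows Fn1. In the same db/db to control test, 1 primitive endoderm marker rose and 4 fell, 4 of 9 tested fibroblast markers fell, and 1 trophoblast marker fell. Of the pluripotency markers 1 rose and 1 fell, and of 7 tested mesendoderm markers 2 rose and 1 fell. The part of these markers in the results was not tested. In bulk RNA, fewer cells of a type and less RNA per cell cannot be told apart. Lepr itself was at 0.606 to 0.718 CPM in corrected, 0.186 to 0.371 in db/db and 0.348 to 0.460 in control lines, and a gene-level count does not check a splice mutation such as db.

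Per kilobase of exon, which allows genes to be compared, Tdgf1 had the highest level of the 9 genes, with a median over the 10 lines of 311 CPM per kilobase (240 to 414). Lefty2 followed at 155 (80.9 to 322), Lefty1 at 73.1 (8.58 to 106), Nodal at 44.4 (33.4 to 49.1) and Foxh1 at 32.9 (15.2 to 50.4). Smad7 had 20.4, Acvr2b 5.9, Skil 5.47 and Cfc1 0.0778 CPM per kilobase. From Tdgf1 down to Smad7 each range overlapped with the next, as did those of Acvr2b and Skil. The ratio of the highest to the lowest mean of a shared name was 11 for Lefty1, 3.81 for Lefty2 and 3.11 for Foxh1, and 1.39 to 1.64 for the other 5 tested genes. Lines of a shared name differed by at most 1.18 times in any of the 8.

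**Figure D1:**
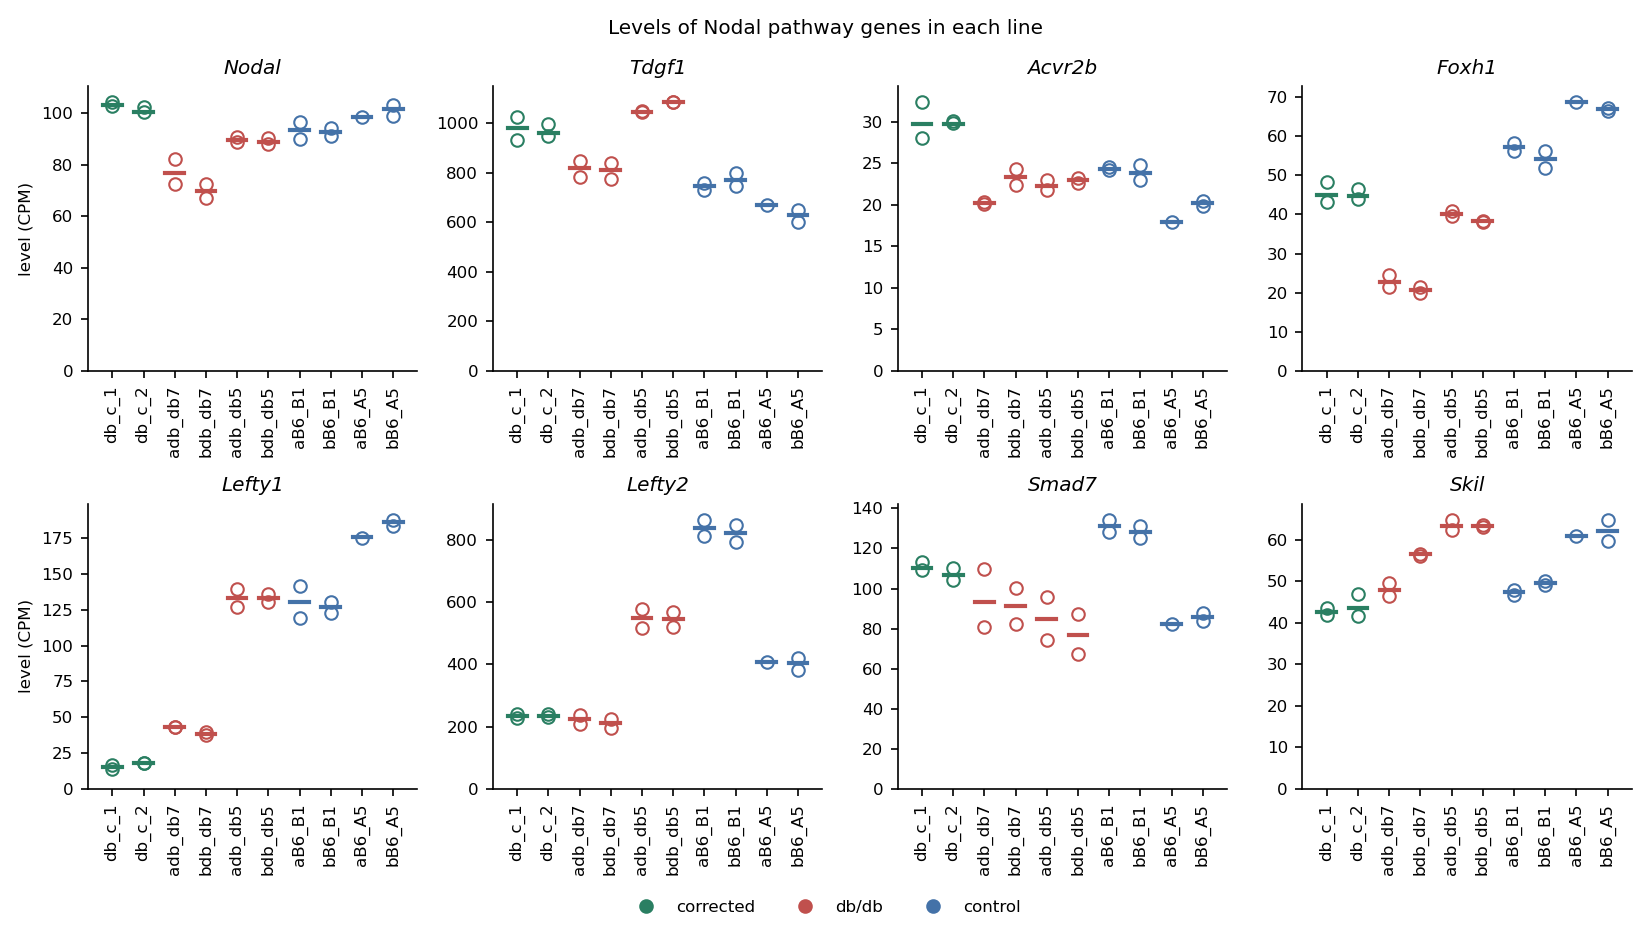
Level in CPM (vertical axis) of 8 Nodal pathway genes in each of 10 lines (horizontal axis). Circles are single libraries and bars the level of the line. Lefty1 lies at 15.1 and 17.8 CPM in the corrected lines and at 176 and 186 CPM in the A5 lines.

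Nodal (ENSMUSG00000037171, chr10:61417972-61425338, + strand), the ligand, varied least among the 8 tested genes. It had 103 and 100.4 CPM in the corrected lines, 76.7 and 69.9 CPM in the db7 lines, 89.6 and 89.0 CPM in the db5 lines, 93.4 and 92.6 CPM in the B1 lines, and 98.6 and 101.5 CPM in the A5 lines. All db/db lines lay under all control lines, with db7 lowest, although single libraries of db5 and B1 overlapped. Libraries of A5 and corrected lines overlapped too. The means were 81.3 ± 9.64 CPM in db/db and 96.5 ± 4.25 CPM in control lines (SD, n = 4 each), a log2 difference of -0.25 ± 0.08 (SE) that did not pass the threshold of 0.05 (edgeR quasi-likelihood test with Benjamini-Hochberg adjustment, adjusted p = 0.064). Leaving out line adb_db5, or scaling by library size alone, took it past the threshold. The corrected lines averaged 102 ± 1.81 CPM (SD, n = 2), a log2 difference of 0.32 ± 0.10 from db/db and 0.08 ± 0.10 from control lines.

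Tdgf1 (ENSMUSG00000032494, chr9:110939603-110946158, - strand) encodes Cripto, the coreceptor through which Nodal reaches its receptors in the epiblast. It had 979 and 961 CPM in the corrected lines, 821 and 812 CPM in the db7 lines, 1044 and 1084 CPM in the db5 lines, 745 and 772 CPM in the B1 lines, and 671 and 629 CPM in the A5 lines. Every db/db and corrected line was above every control line, although libraries of db7 and B1 overlapped. Tdgf1 rose to 940 ± 144 CPM in db/db lines, against 704 ± 65.8 CPM in control lines (SD, n = 4 each), a log2 difference of 0.42 ± 0.11 (edgeR with Benjamini-Hochberg adjustment, adjusted p = 0.027). The call was lost without any 1 of adb_db5, bdb_db5, aB6_B1, aB6_A5 and bB6_A5 (adjusted p of 0.052 to 0.062), and with shared names as replicates (adjusted p = 0.27). Corrected lines averaged 970 ± 12.1 CPM (SD, n = 2), with log2 differences of 0.05 ± 0.13 from db/db and 0.46 ± 0.13 from control lines. Of the 31-base words in Tdgf1 transcripts, 12.5% were shared with the pseudogene Tdgf1-ps1, so reads could be divided between them, and with the pseudogenes added the db/db difference was 0.37 ± 0.11 (adjusted p = 0.041).

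Cfc1 (ENSMUSG00000026124, chr1:34535648-34544313, + strand) encodes Cryptic, the other EGF-CFC coreceptor, which acts in left-right patterning. It had 3 to 10 counts per library in corrected (21 over 4 libraries), 1 to 4 in db/db (19 over 8) and 0 to 4 in control cells (14 over 7). At so few counts no difference between groups was tested. Tdgf1 was at 629 CPM or more in every line, and Cfc1 at 0.183 CPM or less.

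Acvr2b (ENSMUSG00000061393, chr9:119402118-119434995, + strand), a type II receptor for activin and Nodal, had 29.7 and 29.7 CPM in the corrected lines, 20.3 and 23.4 CPM in the db7 lines, 22.3 and 23.0 CPM in the db5 lines, 24.4 and 23.9 CPM in the B1 lines, and 17.9 and 20.2 CPM in the A5 lines. The corrected lines were above the other 8, which overlapped. The means were 22.3 ± 1.38 CPM in db/db and 21.6 ± 3.08 CPM in control lines (SD, n = 4 each), a log2 difference of 0.04 ± 0.10 (edgeR adjusted p = 0.81). The corrected mean of 29.7 CPM was higher than both, by 0.42 ± 0.12 on the log2 scale against db/db and by 0.46 ± 0.12 against control lines.

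Foxh1 (ENSMUSG00000033837, chr15:76668225-76669948, - strand), the forkhead protein that brings SMAD2 and SMAD3 to DNA, had the lowest adjusted p of the 8 genes between db/db and control lines. It had 45.0 and 44.8 CPM in the corrected lines, 22.8 and 20.8 CPM in the db7 lines, 40.1 and 38.3 CPM in the db5 lines, 57.2 and 54.0 CPM in the B1 lines, and 68.8 and 66.9 CPM in the A5 lines. The libraries of these 5 names did not overlap, and the order was db7, db5, corrected, B1, A5. Foxh1 fell to 30.5 ± 10.1 CPM in db/db lines, against 61.7 ± 7.21 CPM in control lines (SD, n = 4 each), a log2 difference of -1.02 ± 0.21 (edgeR adjusted p = 0.01). With the 4 shared names in place of the lines as replicates, the difference was the same and the call was lost (adjusted p = 0.20). Corrected lines averaged 44.9 ± 0.105 CPM (SD, n = 2), with log2 differences of 0.56 ± 0.25 from db/db and -0.46 ± 0.26 from control lines.

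Lefty1 (ENSMUSG00000038793, chr1:180935022-180938400, + strand) and Lefty2 (ENSMUSG00000066652, chr1:180893108-180899103, + strand) lie near each other on chromosome 1 and encode the secreted antagonists. Lefty1 had 15.1 and 17.8 CPM in the corrected lines, 43.2 and 38.5 CPM in the db7 lines, 133 and 133 CPM in the db5 lines, 130.5 and 127 CPM in the B1 lines, and 176 and 186 CPM in the A5 lines. The db5 lines lay with the B1 control lines, whose libraries overlapped with theirs, and the db7 and corrected lines lay far under them. By the means of the shared names, Lefty1 was 2.48 times as high in db7, 8.1 times in db5, 7.81 times in B1 and 11 times in A5 as in the corrected lines. The db7 mean of 40.9 CPM stood against 133 CPM in db5, a log2 difference of -1.71 ± 0.07 between lines of 1 genotype. That SE covers only the spread between lines of a shared name, and the set was selected on this difference.

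Lefty2 had 233 and 234 CPM in the corrected lines, 224 and 211 CPM in the db7 lines, 548 and 546 CPM in the db5 lines, 839.9 and 821 CPM in the B1 lines, and 408 and 403 CPM in the A5 lines. Libraries of db7 and corrected lines overlapped at the low end, and the other names were apart from them and from each other. Lefty2 thus had its highest level in B1 and Lefty1 in A5. In db7 and corrected lines Lefty2 was close, at a ratio of corrected to db7 of 1.07, while Lefty1 was 2.48 times as high in db7 as in corrected lines.

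The share of Lefty1 in the summed level of the pair, which the scaling between lines does not touch, put the 5 names in another order. It was 6.09% and 7.07% in the corrected lines, 16.2% and 15.4% in the db7 lines, 19.5% and 19.6% in the db5 lines, 13.4% and 13.4% in the B1 lines, and 30.1% and 31.6% in the A5 lines. The db7 share lay between those of B1 and db5, although the summed level of the pair was 267 and 250 CPM in db7, 681 and 679.7 CPM in db5 and 970.4 and 948 CPM in B1 lines. The ratio of Lefty2 to Lefty1 was 15.4 and 13.1 in the corrected lines and 2.32 and 2.17 in the A5 lines. Of the 31-base words in Lefty1 transcripts, 25.7% were also found in Lefty2, so estimated counts could move between them and the levels of each are uncertain to that extent.

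In db/db lines, Lefty1 averaged 87.1 ± 53.4 CPM and in control lines 155 ± 30.6 CPM (SD, n = 4 each), a log2 difference of -0.83 ± 0.39 (edgeR adjusted p = 0.17). Lefty2 averaged 383 ± 190 CPM in db/db and 618 ± 245 CPM in control lines, a log2 difference of -0.69 ± 0.38 (edgeR adjusted p = 0.23). Neither passed the threshold, and the spread within each group came mostly from the shared names: for Lefty1 the db5 lines overlapped with control lines, and for Lefty2 the A5 control lines lay under the db5 lines. The sum of both differed by -0.72 ± 0.35 (edgeR adjusted p = 0.18). For the corrected lines, the log2 difference of Lefty1 was -2.40 ± 0.55 from db/db and -3.23 ± 0.57 from control lines. That of Lefty2 was -0.71 ± 0.47 from db/db and -1.41 ± 0.49 from control lines. For the sum of both genes, the differences were -0.91 ± 0.44 and -1.63 ± 0.46.

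**Figure D2:**
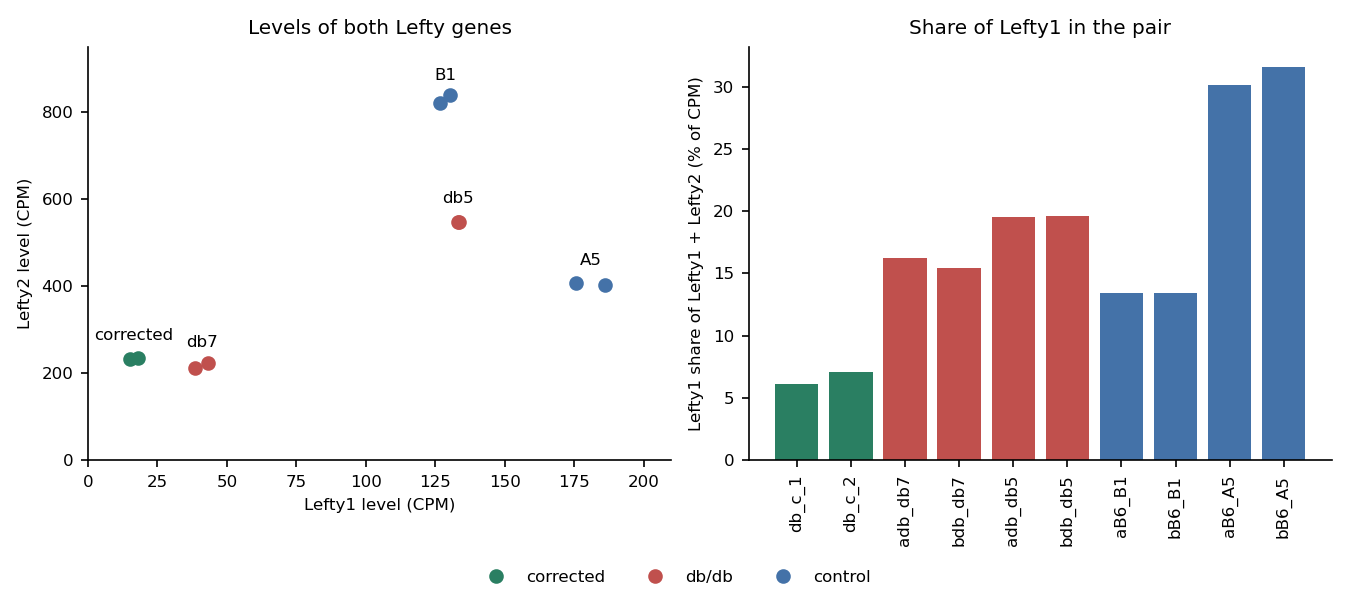
Left, level of Lefty2 (vertical axis, CPM) against that of Lefty1 (horizontal axis, CPM), with a point for each of 10 lines. Right, share of Lefty1 in the summed CPM of both genes, with a bar for each line. The corrected lines have shares of 6.09% and 7.07% and the A5 lines 30.1% and 31.6%.

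Smad7 (ENSMUSG00000025880, chr18:75367529-75395935, + strand) encodes the inhibitory SMAD that blocks the receptors and is itself induced by TGF-beta family signals. It had 110.2 and 107 CPM in the corrected lines, 93.4 and 91.3 CPM in the db7 lines, 84.6 and 76.7 CPM in the db5 lines, 131 and 128 CPM in the B1 lines, and 82.3 and 85.9 CPM in the A5 lines. The A5 control lines lay among the db/db lines, and B1 was above all other names. Duplicate libraries of 1 line differed by up to 1.35 times, more than for any other of the 8 genes, and in all 4 db/db lines the library numbered 2 was the higher, by 0.28 to 0.44 on the log2 scale. It was also the higher in every control line with duplicates, by 0.066 to 0.071. For Lefty2 the library numbered 2 was the lower in all of these db/db and control lines, at -0.213 to -0.088. The means were 86.5 ± 7.55 CPM in db/db and 107 ± 26.4 CPM in control lines (SD, n = 4 each), a log2 difference of -0.31 ± 0.15 that did not pass the threshold (edgeR adjusted p = 0.19). The corrected mean of 108 ± 2.63 CPM (SD, n = 2) differed by 0.33 ± 0.19 from db/db and by 0.02 ± 0.19 from control lines on the log2 scale.

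Skil (ENSMUSG00000027660, chr3:31095058-31122577, + strand) encodes SnoN, a corepressor that binds SMAD proteins and is degraded when the pathway is active. It had 42.5 and 43.6 CPM in the corrected lines, 47.8 and 56.4 CPM in the db7 lines, 63.2 and 63.2 CPM in the db5 lines, 47.3 and 49.6 CPM in the B1 lines, and 60.9 and 62.1 CPM in the A5 lines. The db5 and A5 lines were the high ones and overlapped, so each genotype held a high and a low name. The means were 57.7 ± 7.29 CPM in db/db and 55.0 ± 7.61 CPM in control lines (SD, n = 4 each), a log2 difference of 0.07 ± 0.12 (edgeR adjusted p = 0.71). The corrected mean of 43.0 ± 0.76 CPM was lower, by a log2 difference of -0.42 ± 0.14 from db/db and -0.35 ± 0.14 from control lines.

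Of the 8 tested genes, Tdgf1 rose and Foxh1 fell in db/db against control lines, while 16.9% of all tested genes passed the same threshold. With shared names as replicates neither gene passed. The median log2 difference of the 8 was -0.28, beside -0.001 over all 19700 genes. Of all tested genes, 36.7% passed in corrected against db/db lines, 33.2% in corrected against control lines and 42.0% in db7 against db5 lines. The set was chosen with these 3 comparisons in view, so no count of its own genes is given for them.

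Control lines of the same genotype also differed from each other. In B1 against A5 lines, 38.8% of all tested genes were past the threshold, and of the 8 Nodal pathway genes 4 were higher (Lefty2, Tdgf1, Smad7 and Acvr2b), 3 were lower (Lefty1, Foxh1 and Skil), and Nodal did not pass (edgeR with Benjamini-Hochberg adjustment, adjusted p = 0.098). Lefty2 was higher by 1.03 ± 0.04 on the log2 scale (adjusted p = 1.5e-08) and Lefty1 lower, at -0.49 ± 0.07 (adjusted p = 0.00015), so the 2 antagonists differed in opposite directions. Smad7 was higher by 0.62 ± 0.05 (adjusted p = 2.3e-06). The other differences were between -0.35 and 0.33. These comparisons rest on 2 lines of each name, and their p-values measure the spread between lines that may be near copies. For Lefty2 the log2 difference was 1.03 between B1 and A5 lines and -0.69 between db/db and control lines, and these were not tested against each other.

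**Figure D3:**
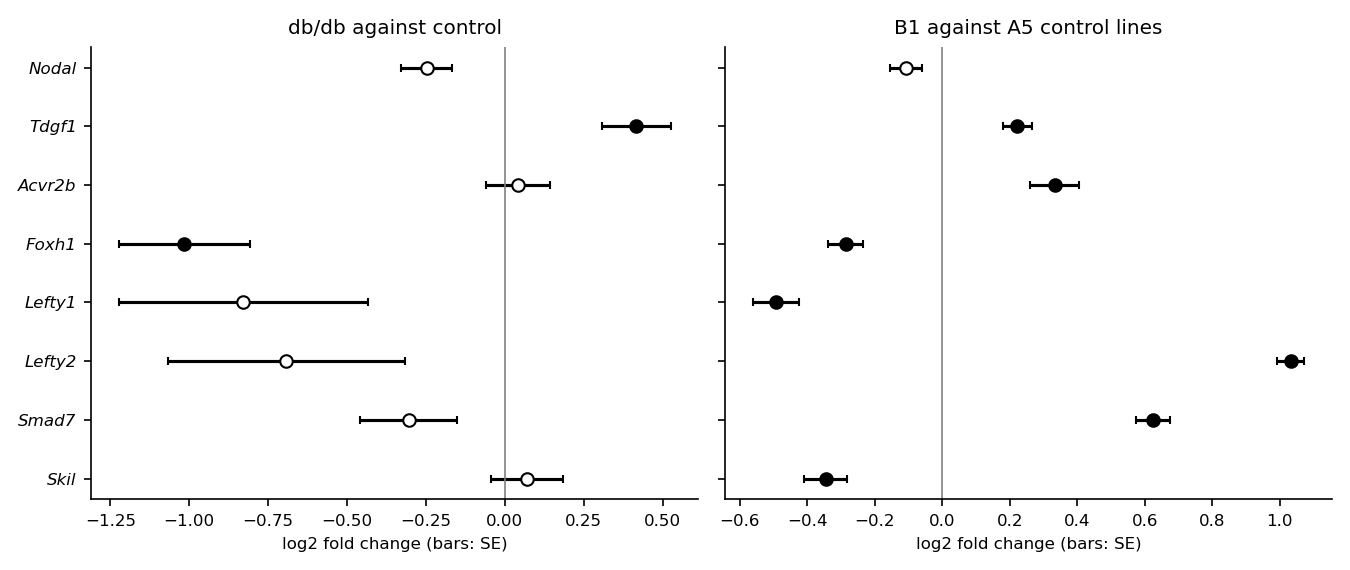
Log2 fold changes (horizontal axis) of 8 Nodal pathway genes for db/db against control lines (left) and for B1 against A5 control lines (right), with bars for the SE. Filled points have an adjusted p under 0.05 in edgeR. Foxh1 lies at -1.02 on the left, and Lefty2 at 1.03 on the right.

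Skil and Foxh1 lie on chromosomes whose genes as a whole were shifted in some lines. The median log2 level of 421 genes on chromosome 3 was 0.35 and 0.37 above the mean of all lines in the db7 lines, and -0.21 and -0.20 in corrected, 0.04 and 0.05 in db5, -0.19 and -0.18 in B1 and -0.03 and -0.05 in A5 lines. On chromosome 15 the median of 367 genes was 0.34 in both A5 lines and -0.15 to -0.04 in the other lines. Set against these medians, Skil had a mean log2 difference between db/db and control lines of -0.25 in place of 0.07, and that between corrected and db/db lines was 0.00 in place of -0.41. The Foxh1 difference between db/db and control lines was -0.87 in place of -1.07, and that between B1 and A5 lines was 0.13 in place of -0.29. Relative to its chromosome, Foxh1 varied in control lines with an SD of 0.08, and in db/db lines with an SD of 0.45.

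**Figure D4:**
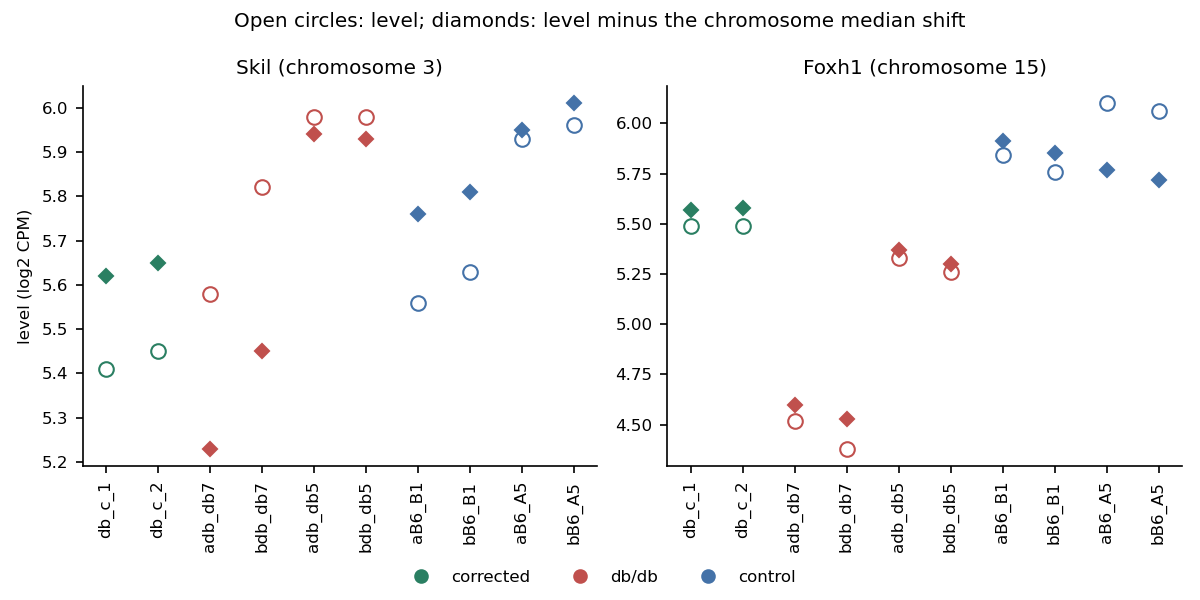
Level (log2 CPM, vertical axis) of Skil and Foxh1 in each of 10 lines, as measured (open circles) and after the median shift of the gene's chromosome in that line is taken off (diamonds). The 2 A5 lines move down by 0.34 for Foxh1, and the db7 lines move down by 0.35 and 0.37 for Skil. The vertical axes do not start at 0.

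Besides these 9, 56 other genes of Nodal, activin and TGF-beta signalling were listed by role, of which 52 were tested. Acvr1c, Cer1, T and Lhx1 were not. In db/db against control lines 5 rose and 7 fell, with a median log2 difference of -0.09 over the 52, while 16.9% of all tested genes passed the threshold. None of 11 SMADs and SMAD regulators passed the threshold, and of 8 other targets 3 fell. Tmeff1, a membrane protein that in frog embryos blocks Nodal signalling by binding the coreceptor, rose most clearly: it had 169 and 171 CPM in the db7 lines and 167 and 168 CPM in the db5 lines, against 49.8 and 50.3 CPM in the B1 lines and 61.7 and 60.9 CPM in the A5 lines. Its log2 difference was 1.60 ± 0.08 (edgeR adjusted p = 5.4e-06), and it stayed past the threshold in all 18 alternatives run.

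Of the other genes named for db/db against control lines, Fst, which binds activin, rose by 0.50 ± 0.09 (edgeR adjusted p = 0.005), and Furin, a convertase that cleaves the Nodal precursor, by 0.36 ± 0.08 (adjusted p = 0.017). Trim33, a ubiquitin ligase that acts on SMAD complexes, rose by 0.45 ± 0.10 (edgeR adjusted p = 0.016). Trim33 lies on chromosome 3, and relative to the median of that chromosome its mean difference was 0.14 in place of 0.45. Eomes, a T-box factor of mesendoderm, rose by 0.69 ± 0.18 (edgeR adjusted p = 0.028). Bambi, a pseudoreceptor, fell by 0.42 ± 0.11 (edgeR adjusted p = 0.026). The homeobox gene Gsc, at 0.53 ± 0.21 CPM in db/db and 1.09 ± 0.21 CPM in control lines (SD, n = 4 each), was lower by -1.06 ± 0.27 on the log2 scale (edgeR adjusted p = 0.027). Without a single line, 3 of these calls were lost (edgeR adjusted p of 0.050 to 0.074): that of Bambi without either db7 line or either B1 line, that of Gsc without bdb_db7, either db5 line or either B1 line, and that of Eomes without either db7 line or any control line. With shared names as replicates, of the 7 genes given with a p-value Tmeff1 alone kept its call (adjusted p of the others 0.20 to 0.31).

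Corrected lines differed from db/db lines in 22 of the 52 other genes, 17 of which were higher and 5 lower, with a median log2 difference of 0.25, while 36.7% of all tested genes were past the threshold. Of 5 other receptors tested, 3 were higher (Tgfbr2, Tgfbr3 and Acvr1b), and of 11 SMADs and regulators 5 were higher and 1 lower. Tgfbr3, which encodes the coreceptor betaglycan, had 11.4 and 10.9 CPM in the corrected lines, 3.25 and 3.38 CPM in the db7 lines and 3.38 and 3.05 CPM in the db5 lines, a log2 difference of 1.77 ± 0.11 (edgeR adjusted p = 1.9e-05). Tgfbr2, the type II receptor for TGF-beta, had 5.47 and 5.07 CPM in the corrected lines and 1.31 to 1.84 CPM in the db/db lines (edgeR adjusted p = 0.00019). Both receptors were also higher than in control lines, at log2 differences of 1.42 ± 0.11 and 1.47 ± 0.19 (edgeR adjusted p = 5.3e-05 and 0.00058).

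Smad6, the inhibitory SMAD of the BMP branch, was higher in corrected than in db/db lines by 2.07 ± 0.28 on the log2 scale (edgeR adjusted p = 0.00056), with 9.75 and 9.12 CPM against 1.86 to 2.63 CPM. Smad3, a carrier of the Nodal signal, was higher by 0.91 ± 0.13 (edgeR adjusted p = 0.00066), and Nedd4l, a ubiquitin ligase of activated SMADs, by 0.68 ± 0.11 (adjusted p = 0.0013). Sox17, a marker of endoderm, had 1.55 and 1.20 CPM in the corrected lines and 0.152 to 0.510 CPM in the db/db lines (log2 difference of 2.10 ± 0.34, edgeR adjusted p = 0.0013). Sox17 is also on the primitive endoderm list, whose summed level was highest in corrected lines, mostly through Col4a1. Fst was higher by 1.09 ± 0.10 (edgeR adjusted p = 9.1e-05), while Tmeff1 was lower, at -0.62 ± 0.10 (adjusted p = 0.0011), at 109 and 110 CPM.

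Against control lines, 17 of the 52 were higher and 5 lower in corrected lines (median log2 difference of 0.14), and 33.2% of all tested genes passed. Fst was higher by 1.59 ± 0.10 (edgeR adjusted p = 2.2e-05) and Tmeff1 by 0.98 ± 0.09 (adjusted p = 0.00011), so Tmeff1 stood between db/db and control lines. Smad3 was higher by 0.94 ± 0.13, Furin by 0.64 ± 0.10, Nedd4l by 0.60 ± 0.11 and Smurf2, another ubiquitin ligase, by 0.46 ± 0.09 (edgeR adjusted p = 0.00072, 0.0014, 0.0032 and 0.0031). The comparison of corrected with db/db lines and that with control lines share the 2 corrected lines, and the comparison of db/db with control lines shares samples with both.

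Between control lines, 17 of the 52 were higher and 9 lower in B1 than in A5 (median log2 difference of 0.13), beside 38.8% of all tested genes. Of 12 other ligands and convertases 4 were higher and 2 lower, and the lower ones were Inhba, at -0.50 ± 0.14, and Inhbe, at -1.20 ± 0.22 (edgeR adjusted p = 0.016 and 0.0011), both genes of activin subunits. The level of Inhbe was low, at 0.546 and 0.528 CPM in the B1 lines and 1.34 and 1.14 CPM in the A5 lines. Inhbb, a subunit of activin B, was higher by 0.67 ± 0.05 (edgeR adjusted p = 9e-07), Tgfb1 by 1.31 ± 0.11 (adjusted p = 2.8e-06) and Gdf3, a relative of Nodal, by 0.45 ± 0.05 (adjusted p = 4.8e-05). The convertase Pcsk6 was also higher by 0.59 ± 0.05 (edgeR adjusted p = 1.6e-06) and Smad6 by 0.94 ± 0.11 (adjusted p = 4.1e-05). Rnf111, whose product Arkadia marks SnoN for degradation, was lower, at -0.53 ± 0.05 (edgeR adjusted p = 5.7e-06), and so was Tmeff1, at -0.29 ± 0.04 (adjusted p = 7.6e-05). Among db/db lines, Inhbb had 10.3 and 9.65 CPM in the db7 lines, against 37.8 and 36.0 CPM in the db5 lines.

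**Figure D5:**
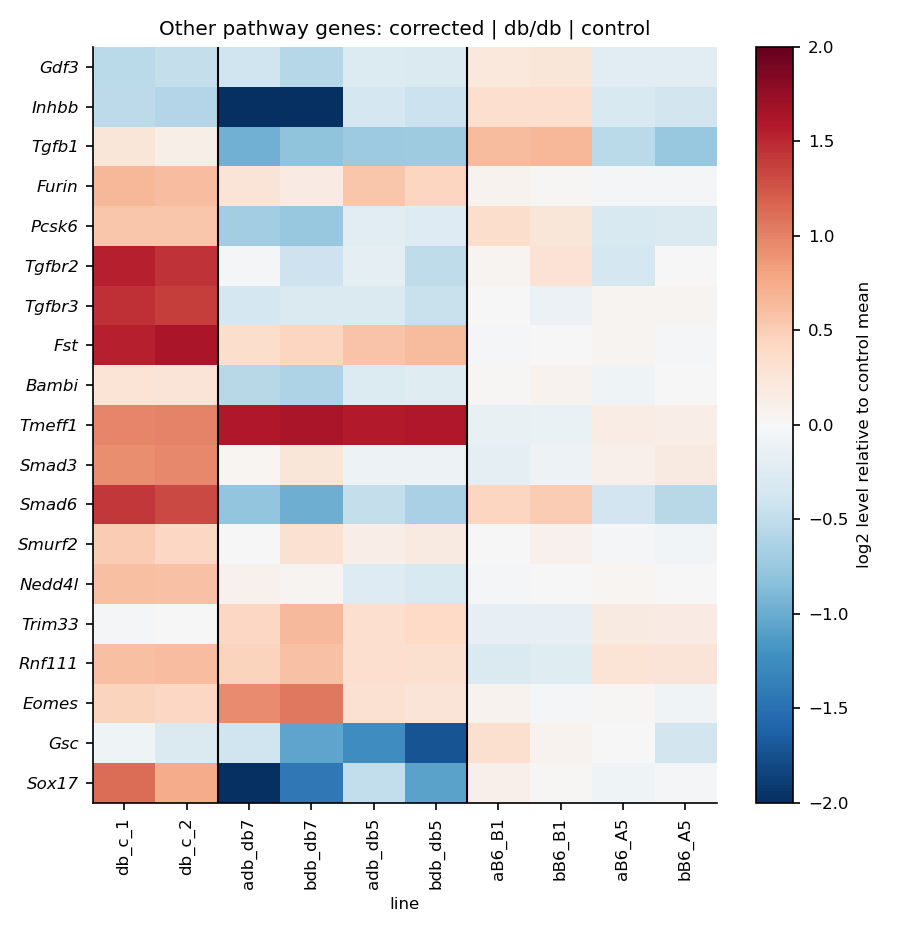
Level of 19 other pathway genes (rows) in 10 lines (columns, corrected, db/db and control from left to right) as the log2 difference from the mean of the control lines, in colour. Colours end at -2 and 2, so that values past them look alike. Tmeff1 is at 1.59 to 1.63 in the 4 db/db lines, and Tgfbr2, Tgfbr3 and Fst are highest in the 2 corrected lines.

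Patterns over the 10 lines were compared by Pearson r of log2 CPM. Of 9148 genes averaging 10 CPM or more, 8785 were searched, without predicted genes, unnamed identifiers, pseudogenes and the genes of the set. The genes most like Lefty1 were Fdft1 (r = 0.988), Polr3e (0.988), Emb (0.986), Cdc45 (0.985) and Rcc1l (0.985). For Nodal they were Fuca1 (r = 0.979), Tfr2 (0.978), Gne (0.973), Spint1 (0.971) and Map3k10 (0.969). Fdft1, an enzyme of sterol synthesis, had 50.8 and 54.7 CPM in the corrected lines, 74.0 and 69.5 CPM in the db7 lines and 89.3 to 99.2 CPM in the other lines, a smaller range than that of Lefty1. The 10 lines carry 5 names, so these correlations describe little more than 5 levels and come with no test. By Spearman's rho, Polr3e ranked 2 and Fdft1 364 for Lefty1.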

How the data were processed

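Total RNA of 10 lines was isolated with an RNeasy kit and made into 19 TruSeq stranded mRNA libraries, per the labels' protocols, and sequenced on a NovaSeq6000, per the series' design text. The authors deposited 1 table of estimated counts per gene. Kallisto and GRCm38 are named in the submitters' processing notes, with the version, index and summing of transcripts not given in the sources used here. Of 52143 identifiers, 51336 matched a name in GENCODE M21, with 99.38% of the counts, and 79.7% of the values were whole within 1e-06. Libraries held 27333914 to 41203703 counts, and depth limits the precision of Cfc1 most.

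Estimated counts were rounded in each library and summed per line. After filterByExpr and TMM scaling, the quasi-likelihood test of edgeR 4.0.16 (R 4.3.3) was used, p-values were adjusted by Benjamini-Hochberg and the threshold was 0.05, with corrected, db/db and control lines in 1 fit. B1 against A5 came from a fit of 5 names with 2 lines each. Log2 CPM had a prior count of 2. The fitting was tested on simulated data with independent lines, which cannot check calls where lines of a shared name are 1 clone. Up to 8 other pathway genes per comparison were named, past the threshold, by lowest p, with at least 1 CPM in the higher group. Genes behind a list's count of 5 or fewer, and Inhbb in db/db lines, were named after their values were seen. A gene that the rule names is not reported here. The members, lists and rules were chosen with earlier results of these data known. Alternatives were other scaling (DESeq2 size factors, library size alone), no filter, DESeq2 1.42.0 as the test, single libraries as samples, shared names as replicates, leaving out lines or library adb_db7_2, summed near copies and chromosome medians. Python 3.11.15, pandas 2.3.3 and matplotlib 3.10.9 made tables and figures.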

Additional observations from a re-analysis of the deposited data

How the results depend on the processing

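Under the alternatives run, the db/db to control differences of Lefty1, Lefty2, Tdgf1, Foxh1, Smad7 and Nodal kept their signs, while that of Acvr2b, 0.04, was -0.039 to 0.103 and had no stable sign. Set against chromosome 3, the difference of Skil reversed, to -0.25. For Nodal, the difference passed the threshold with library size alone (-0.29), DESeq2 (-0.24), single libraries (-0.24), single libraries of both groups (-0.25), the replicate block (-0.25) and without adb_db5, and ranged from -0.30 to -0.18 when lines were left out. Single libraries also took Lefty1 (-0.80), Lefty2 (-0.76) and Smad7 (-0.34) past it, and Smad7 was past it in single libraries of both groups (-0.35) and with the replicate block (-0.38). These fits count duplicates of a line as separate samples, so their p-values may be too low. With shared names as replicates, Tdgf1 (0.42) and Foxh1 (-1.02) did not pass. Leaving out lines gave 0.34 to 0.48 for Tdgf1. The fit on single libraries of both groups was added after the data were seen. The cause of these changes was not tested.

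The count of genes past the threshold in db/db against control lines, 3332 (6561 at an unadjusted p under 0.05), was 7247 with single libraries, 6175 with those of both groups, 6188 with the replicate block, 34 with shared names and 4730 with DESeq2. It was 1991 to 3211 when lines were left out, with 1991 without aB6_B1 and 2021 without bB6_B1. The count for corrected against db/db lines, 7235, was 3281 with shared names and 3113 to 7638 without single lines, lowest without db_c_1 (3113) and db_c_2 (3183). For corrected against control lines, 6537, it was 2547 with shared names and 2377 to 5826 without single lines, lowest without db_c_2 (2377) and db_c_1 (2438). Scaling by library size alone moved the split of higher and lower genes to 1085 and 2156 for db/db against control (main values 1460 and 1872), to 5215 and 1817 for corrected against db/db (3683 and 3552) and to 4407 and 2049 for corrected against control (3184 and 3353). It moved the median of all genes to 0.19 and 0.12 in the comparisons of corrected lines. The labels do not say whether duplicate numbers mark a shared batch or day. In 12 pairs of a control and a db/db line, deviations of same-numbered libraries correlated at -0.05 to 0.613, above 0.1 in 9. The replicate block changed no call of the 8 genes that single libraries of both groups did not change.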
